A study of Mus musculus with 4 samples.

Results

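Heat shock chaperones are proteins that keep other proteins folded, and the 10 genes described here were listed by name: Hspa1a, Hspa1b, Hspa8, Hspa5, Hsp90aa1, Hsp90ab1, Hsph1, Dnajb1, Hspb1 and Hspe1. A gene counted as measured when at least 1 probe set of the array was annotated to it and to no other gene. By that rule 9 of the 10 genes were measured, by 24 probe sets, out of 18193 genes with such a probe set in all. Hsp90ab1 had no such probe set and was not analysed here. All 9 measured genes exceeded the floor on at least 1 array and were among the 14012 genes tested. The floor is the median of all signals, 189.

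RNA from 4 mouse samples was hybridised to 1 Affymetrix expression array each. The series names C57BL6 mice and gives no age. The mixed lineage leukemia arose from hematopoietic stem and precursor cells transduced with both AF4-MLL and MLL-AF4, which are fusions of the histone methyltransferase MLL and the elongation factor AF4. Cells of the same kind that received only AF4-MLL gave the proB ALL, an acute lymphoblastic leukemia, and the B/T BAL, a biphenotypic one, called the proB and B/T leukemias below. Normal bone marrow, with no fusion stated, was the control. Leukemic cells came from the marrow of moribund mice and were typed by flow cytometry without sorting, so each array holds whatever other marrow cells were present. The labels do not say whether a sample was 1 mouse or a pool, nor which promoter drove the fusions. Groups had no replicates, and single values therefore carry no replicate error.

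Marker genes differed between the arrays as follows. Early B-cell markers were at least 2-fold lower than in normal marrow for 9 of 9 tested genes on the array labelled proB ALL. On the mixed lineage array 7 of 9 were lower. At or below the floor were 5, 6 and 3 of them in the mixed lineage, proB and B/T leukemias, with Vpreb1, Igll1 and Ebf1 on all 3 arrays. On the array labelled proB ALL 11 of 11 natural killer and cytotoxic markers were at least 2-fold higher. The proB label was therefore not borne out by its defining markers, and the label is used here as a name only. On the B/T BAL array 10 of 10 T-cell markers were at least 2-fold higher, as were 2 of 9 early B-cell markers (Rag1 and Dntt), the other 7 being lower. T-cell markers were higher in 4 and lower in 2 of 10 genes on the array labelled proB ALL. On the mixed lineage array 0 of them were higher and 4 lower. On the mixed lineage array 7 of 11 monocyte markers were at least 2-fold higher, while 8 were lower on the proB array and 9 on the B/T array. Late neutrophil markers were lower in 0, 8 and 4 of 10 genes in the mixed lineage, proB and B/T leukemias, with summed signals of 637168, 123051 and 405920, against 386136 in normal marrow. Erythroid markers were at least 2-fold lower in 12 of 12 genes on each leukemia array, with summed signals of 11012, 16563 and 19030 in the mixed lineage, proB and B/T leukemias, against 297751 in normal marrow. Fewer cells of a type and less RNA per cell cannot be told apart in such unsorted samples. The share of probe sets above the floor was 57.4%, 46.3% and 49.0% in the mixed lineage, proB and B/T leukemias, against 47.2% in normal marrow. Actb, whose 3' over 5' signal tracks RNA degradation, had ratios of 3.10, 2.47 and 4.72 in these leukemias, against 1.87 in normal marrow. For Gapdh the ratios were closer together, with 1.24, 1.28 and 1.14 in these leukemias, against 0.944 in normal marrow. By Actb the B/T array was the highest, and by Gapdh it was the lowest of the leukemias.

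Chaperones of the HSP70 family bind unfolded stretches of protein and release them in cycles of ATP hydrolysis, with J-domain proteins such as Dnajb1 delivering the substrate and nucleotide exchange factors such as Hsph1 resetting the cycle. Hspa8 is made in nearly all cells at all times, whereas Hspa1a and Hspa1b are nearly silent until heat, oxidants or misfolded protein release the transcription factor HSF1. HSF1 binds heat shock elements, which are inverted repeats of the unit GAA in promoters. Hspa5 serves the endoplasmic reticulum (ER) and answers instead to the unfolded protein response through ER stress elements, and Hspe1 is the lid of the mitochondrial chaperonin ring built by Hspd1.

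The promoter windows of the 4 genes that best show these 2 modes of control are printed here, each from 250 bases before to 50 bases from the start on. Capitals mark matches to a heat shock element pair (GAANNTTC or TTCNNGAA, each its own reverse complement) or to the ER stress element (CCAAT and CCACG with 9 bases between them, searched on both strands). Sequences are from RefSeq, with their build and strand given.
Hspa1b (GRCm38.p6, chr17:34959189-34959488, minus strand): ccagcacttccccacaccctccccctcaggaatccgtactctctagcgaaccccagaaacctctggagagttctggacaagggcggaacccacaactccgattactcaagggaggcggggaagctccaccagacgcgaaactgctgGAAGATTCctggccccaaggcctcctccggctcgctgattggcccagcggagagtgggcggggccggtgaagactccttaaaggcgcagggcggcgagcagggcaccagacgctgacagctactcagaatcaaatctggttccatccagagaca
Hsph1 (GRCm38.p6, chr5:149636287-149636586, minus strand): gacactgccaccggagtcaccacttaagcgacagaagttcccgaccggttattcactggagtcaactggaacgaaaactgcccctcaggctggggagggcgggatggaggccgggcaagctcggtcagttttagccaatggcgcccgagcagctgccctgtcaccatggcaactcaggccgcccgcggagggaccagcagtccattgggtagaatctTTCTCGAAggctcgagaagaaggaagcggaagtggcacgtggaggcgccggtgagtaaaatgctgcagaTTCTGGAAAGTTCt
Hspe1 (GRCm38.p6, chr1:55087898-55088197, plus strand): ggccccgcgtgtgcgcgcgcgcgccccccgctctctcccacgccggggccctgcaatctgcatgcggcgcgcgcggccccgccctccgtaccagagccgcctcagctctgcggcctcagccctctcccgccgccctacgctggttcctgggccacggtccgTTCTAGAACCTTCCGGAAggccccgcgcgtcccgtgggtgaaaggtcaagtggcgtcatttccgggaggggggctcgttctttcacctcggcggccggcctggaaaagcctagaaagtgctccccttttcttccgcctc
Hspa5 (GRCm38.p6, chr2:34771840-34772139, plus strand): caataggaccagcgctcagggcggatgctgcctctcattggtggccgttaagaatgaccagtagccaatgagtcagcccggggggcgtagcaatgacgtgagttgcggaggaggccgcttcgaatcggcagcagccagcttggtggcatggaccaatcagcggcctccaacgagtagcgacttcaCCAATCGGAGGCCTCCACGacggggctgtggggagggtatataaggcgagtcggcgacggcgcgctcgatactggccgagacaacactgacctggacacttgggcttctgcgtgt
A promoter window was held for 7 of the 10 genes. The Hspa1a window differed from that of Hspa1b at 4 of 300 bases, and both hold 1 heat shock element pair, from -104 to -97. In Hspe1 3 pairs overlap in 1 run of capitals from -89 to -72. In Hsph1 1 pair lies at -33 and 2 overlapping pairs start at 37. Hspb1, a small chaperone that binds unfolded protein without ATP, holds 2 pairs that do not overlap. In both Dnajb1 windows and in that of Hspa5 no pair was matched, and Hspa5 holds 1 ER stress element from -65 to -47. Over all 32851 promoter windows of the same length, 15.1% hold a heat shock element pair and 0.119% the ER stress element. A run of 3 units (GAA, TTC and GAA with 2 bases between neighbours), read on either strand and overlapping the pairs, is held by 0.603% of windows and was matched in Hspe1 and Hsph1. Such matches describe the letters of a window and not binding.

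**Figure D1:**
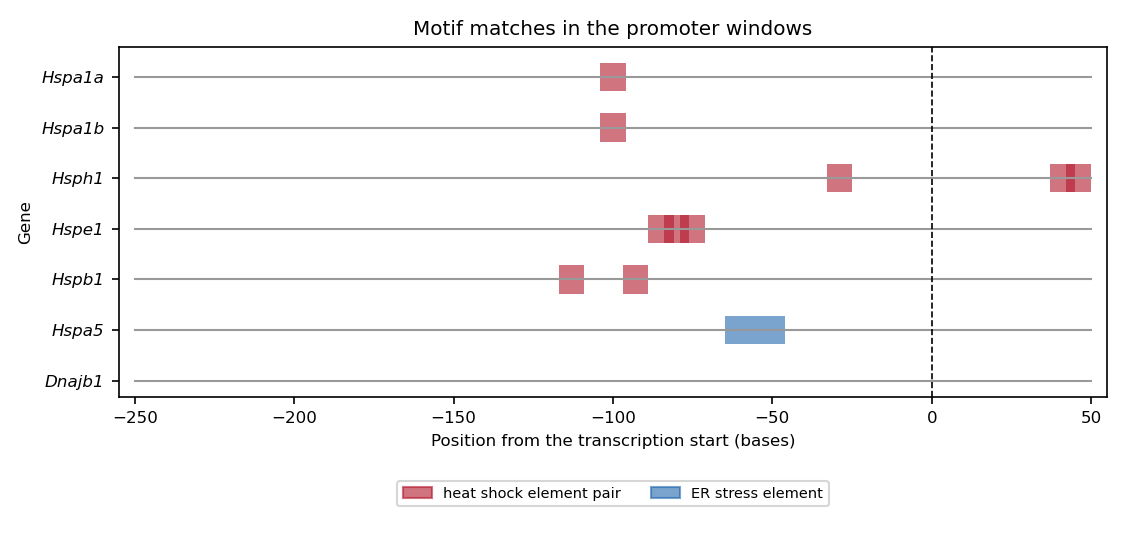
Positions of motif matches in the promoter windows of 7 chaperone genes, in bases from the transcription start (dashed line); red boxes are heat shock element pairs, blue the ER stress element, and darker red marks overlap. Hspe1 carries 3 overlapping pairs, Hspa1a and Hspa1b 1 pair each at the same place, and Dnajb1 none.

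Of the 9 chaperones, the stress-inducible Hspa1b had the widest range over the 4 arrays. Hspa1b, one of the 2 inducible HSP70 genes, had signals of 5983 in the mixed lineage, 192 in the proB and 5058 in the B/T leukemia, against 662 in normal marrow. Mixed lineage leukemia and B/T BAL were both high and proB ALL was at the edge of detection, with normal marrow between them. The signal was 9.04-fold higher in the mixed lineage leukemia and 7.64-fold higher in the B/T leukemia than in normal marrow, and 3.45-fold lower in the proB leukemia than in normal marrow. Between leukemias it was 31.2-fold higher in the mixed lineage leukemia than in the proB leukemia and 26.4-fold higher in the B/T leukemia than in the proB leukemia. Counting Hspa1b, 39 tested genes were higher by as much or more in the mixed lineage leukemia than in normal marrow, and 97.5% had a smaller range over the 4 arrays. Monocyte and late neutrophil markers were also low in the proB leukemia, as given above. Monocyte markers were low as well in the B/T leukemia, where 9 of 11 were lower and Hspa1b was high. The part of these markers in the Hspa1b values was not tested.

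The other probe sets of Hspa1b gave the same order. One had 1122, 54.5 and 907 in the mixed lineage, proB and B/T leukemias against 132 in normal marrow, and the other had 1971, 65.8 and 1616 in these leukemias against 322 in normal marrow. Hspa1a, the second inducible gene, had 760, 48.6 and 242 in the mixed lineage, proB and B/T leukemias, against 175 in normal marrow. For Hspa1a the mixed lineage signal was higher than the normal one by at least 4.03-fold, and 3.14-fold higher than the B/T one. Its values in the proB leukemia and normal marrow were both below the floor, so no fold is given between them. Hspa1a and Hspa1b encode nearly the same protein, and probe sets of one can pick up RNA of the other, so their values may not be separate measurements.

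Hsph1 and Hspe1, both with longer heat shock element runs in their windows, were low on the mixed lineage array, where Hspa1b was high. Hsph1, the HSP110 exchange factor of the HSP70 cycle, had 309 in the mixed lineage, 3777 in the proB and 2473 in the B/T leukemia, against 3680 in normal marrow. The mixed lineage array lay far below the other 3 arrays, which differed among themselves by 1.53-fold at most. The signal was 11.9-fold lower in the mixed lineage leukemia than in normal marrow, 12.2-fold lower than in the proB leukemia and 8.0-fold lower than in the B/T leukemia. The gap to the nearest other array was 2.81 on the log2 scale, and 18 of the 14012 tested genes, Hsph1 included, lay that far below all other arrays on the mixed lineage array. The second Hsph1 probe set had 29.9 in the mixed lineage leukemia, below the floor, against 933 in the proB leukemia, 698 in the B/T leukemia and 1131 in normal marrow.

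Hspe1, the mitochondrial HSP10, had 5301 in the mixed lineage, 18360 in the proB and 19630 in the B/T leukemia, against 11705 in normal marrow. Its second probe set had 1571, 7129 and 7472 in the mixed lineage, proB and B/T leukemias, against 4673 in normal marrow. Both probe sets put mixed lineage leukemia lowest and the AF4-MLL leukemias close together. The first gave a signal 2.21-fold lower in the mixed lineage leukemia than in normal marrow, and 1.57-fold and 1.68-fold higher in the proB and B/T leukemias than in normal marrow. Hspd1, the HSP60 partner of Hspe1, has a promoter window that shares 285 bases with that of Hspe1, on the opposite strand. It had 5081 in the mixed lineage, 24221 in the proB and 17794 in the B/T leukemia, against 14056 in normal marrow, with mixed lineage leukemia again lowest.

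**Figure D2:**
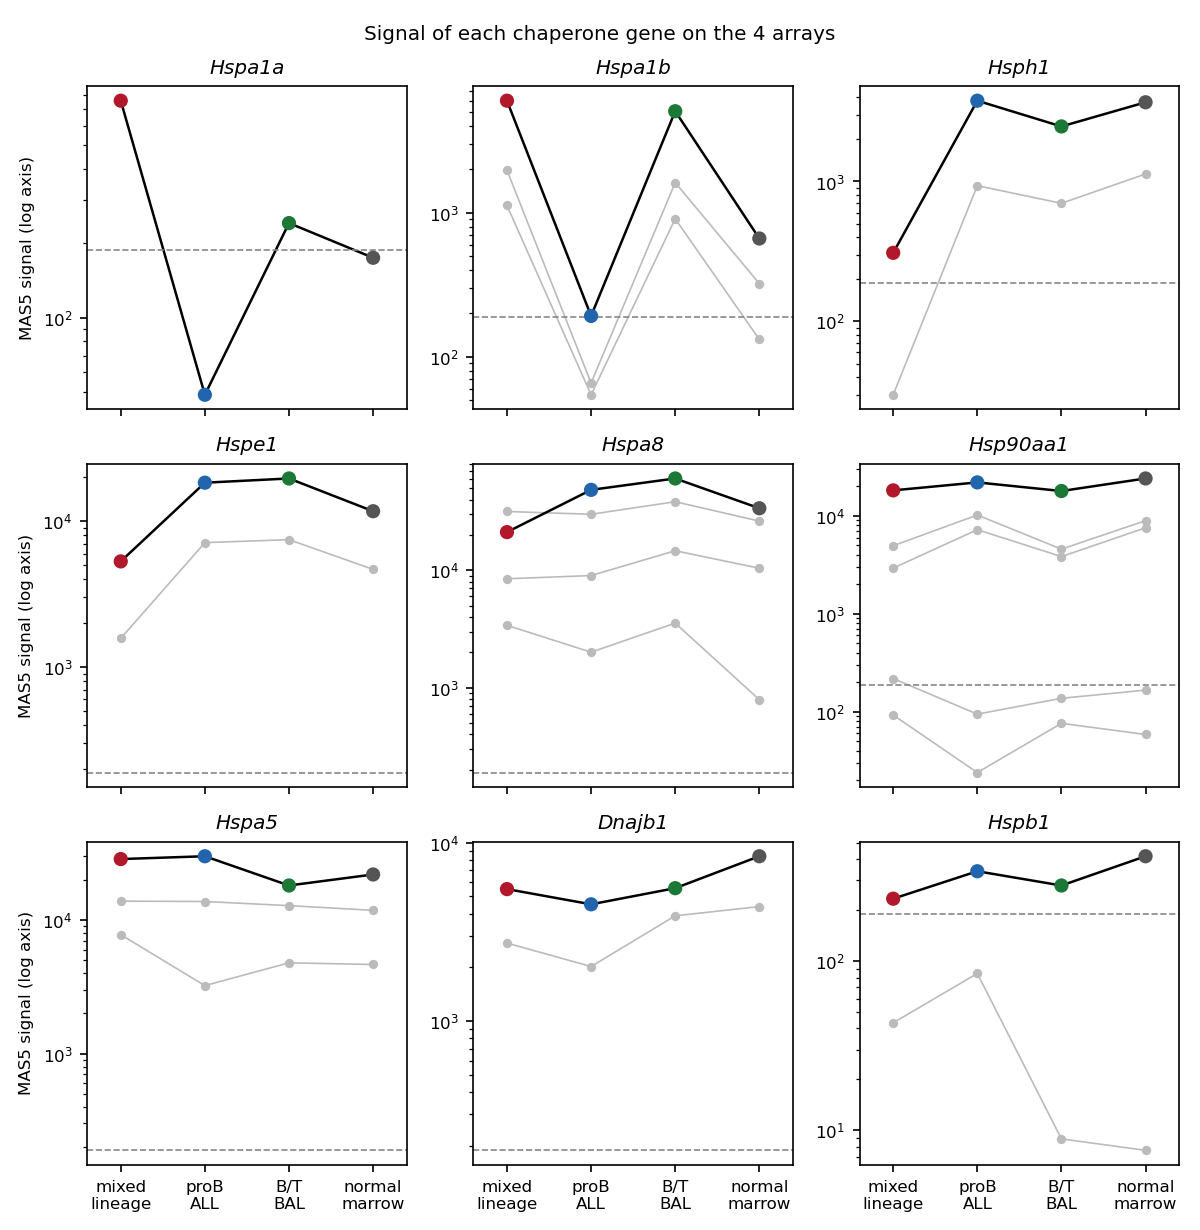
MAS5 signal (log axis) of the 9 measured chaperone genes on the 4 arrays, 1 array a group; coloured points are the brightest probe set of a gene, grey points its other probe sets, lines join values of 1 probe set, and the dashed line is the floor of 189. Hspa1b is high in the mixed lineage leukemia and B/T BAL and at 192 in the proB leukemia, while Hsph1 drops to 309 in the mixed lineage leukemia alone.

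By their brightest probe sets, the constitutive and ER chaperones Hspa8 and Hspa5 stood within 2-fold of normal marrow in each leukemia. Hspa8, the HSP70 of unstressed cells, had 21141 in the mixed lineage, 48441 in the proB and 60565 in the B/T leukemia, against 33766 in normal marrow by its brightest probe set. That probe set is marked for cross-hybridisation, and its 2.29-fold and 2.86-fold lower signal in the mixed lineage than in the proB and B/T leukemias did not reach 2-fold in its other probe sets. One gave 31686, 30000 and 38391 in the mixed lineage, proB and B/T leukemias against 26236 in normal marrow. Another gave 8462, 9014 and 14669 in the mixed lineage, proB and B/T leukemias, against 10407 in normal marrow. The dimmest probe set of Hspa8 had 3396, 2005 and 3545 in the mixed lineage, proB and B/T leukemias, against 790 in normal marrow, so that the direction for Hspa8 depended on the probe set.

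Hsp90aa1, the inducible cytosolic HSP90 that matures kinases and hormone receptors, had 18207, 21956 and 17929 in the mixed lineage, proB and B/T leukemias, against 24081 in normal marrow. All 3 leukemias lay below normal marrow, by 1.34-fold at most, and 3.45% of tested genes had a smaller range. Its next probe set had 4948, 10202 and 4569 in the mixed lineage, proB and B/T leukemias against 8928 in normal marrow, and another had 2927, 7219 and 3836 in these leukemias against 7555 in normal marrow. In both, the mixed lineage and B/T arrays were low and the proB array stood near normal marrow. Hspa5, the ER chaperone BiP, had 28577, 30000 and 18123 in the mixed lineage, proB and B/T leukemias, against 21911 in normal marrow. By that probe set no leukemia differed from normal marrow by more than 1.37-fold. A second probe set had 13844, 13752 and 12807 in the mixed lineage, proB and B/T leukemias against 11814 in normal marrow, and the last had 7764, 3229 and 4780 in these leukemias against 4646 in normal marrow.

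Dnajb1, the J-domain partner of inducible HSP70, had 5495 in the mixed lineage, 4516 in the proB and 5561 in the B/T leukemia, against 8396 in normal marrow. Its second probe set had 2739, 2024 and 3893 in the mixed lineage, proB and B/T leukemias, against 4386 in normal marrow. In both, all 3 leukemias were below normal marrow and proB ALL was lowest. Hspb1 was dim on every array, with 234, 340 and 280 in the mixed lineage, proB and B/T leukemias against 417 in normal marrow, and its second probe set never reached the floor. The brightest Hspb1 probe set put all 3 leukemias below normal marrow, by values not far above the floor.

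At 2-fold on the log2(signal + 51.4) scale, 4 of the 9 chaperones differed from normal marrow in the mixed lineage leukemia, 2 higher (Hspa1a and Hspa1b) and 2 lower (Hsph1 and Hspe1). Over all tested genes 18.8% were higher and 15.2% lower by that rule. Lower were 4 under quantile normalization and 1 with each array scaled to its 75th percentile. In proB ALL 0 were higher and 2 lower (Hspa1a and Hspa1b), where 11.3% of all tested genes were higher and 18.7% lower. Hspa1a lay below the floor on both arrays, and with dimmer signals raised to the floor 1 was lower, Hspa1b. In B/T BAL 1 was higher (Hspa1b) and 0 lower, where 15.4% were higher and 17.7% lower. With 9 genes, 1 gene is a share of about the same size as these backgrounds, and nothing is read from the counts about chaperones as a group. Between leukemias, 2 were higher and 3 lower (Hspa8, Hsph1 and Hspe1) in the mixed lineage than in the proB leukemia, where 27.3% and 15.7% of tested genes were. In the mixed lineage against the B/T leukemia 1 was higher (Hspa1a) and the same 3 lower, where 26.3% and 21.2% were. In the B/T against the proB leukemia 2 were higher (Hspa1a and Hspa1b) and 0 lower, where 15.9% and 10.5% were. Hspa1a was below the floor in the proB leukemia, and its fold there was only known to be at least 1.28. Their median log2 difference was -0.61 in the mixed lineage leukemia, -0.13 in the proB leukemia and -0.27 in the B/T leukemia, beside 0.08, -0.11 and 0.05 over all tested genes. Below normal marrow in all 3 leukemias, with no overlap, were 3 of 9 (Hsp90aa1, Dnajb1 and Hspb1), where 19.2% of tested genes were, and 0 lay above it in all 3, where 19.1% were. At 2-fold, 0 lay above in all 3 and 0 below, where 1.31% and 4.45% did. The mixed lineage array was lowest of the 4 for 4 of 9 (Hspa8, Hsph1, Hspb1 and Hspe1), where it was for 27.9%, and by 2-fold for 2 (Hsph1 and Hspe1), where it was for 5.30%. The proB array was lowest for 3 (Hspa1a, Hspa1b and Dnajb1), where it was for 29.9%, and by 2-fold for 2 (Hspa1a and Hspa1b), where it was for 3.71%. For Hspa1a this rests on values below the floor in both the proB leukemia and normal marrow. Hspa1b was the 1 chaperone at least 2-fold higher on the mixed lineage and B/T arrays than on both others, a pattern of 1.37% of tested genes. The first 3 comparisons share the 1 normal array.

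**Figure D3:**
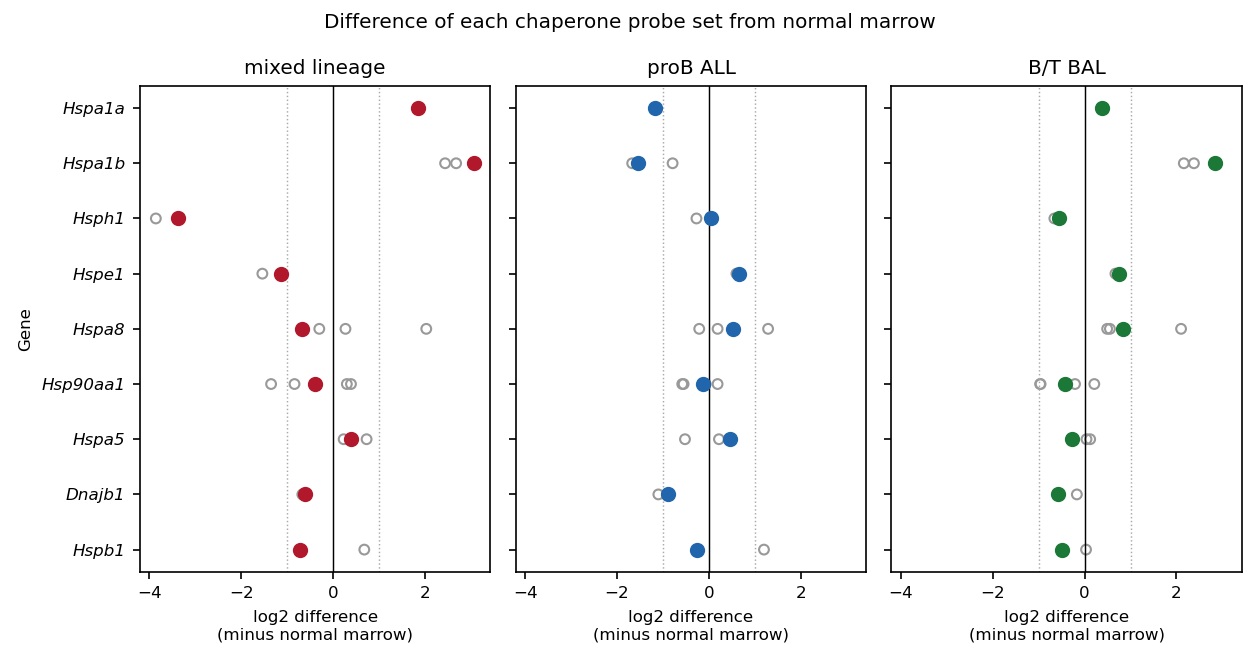
Log2 difference of each leukemia from normal marrow for the 24 probe sets of the 9 chaperone genes; filled points are the brightest probe set of a gene, open points the others, and dotted lines mark 2-fold. Hspa1b stands at 3.08, -1.55 and 2.84, and Hsph1 at -3.37, 0.04 and -0.56, in the mixed lineage, proB and B/T leukemias.

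The design sets leukemic against normal marrow, and this was tested with limma across all genes, 3 leukemias against 1 normal array. None of the 9 chaperones passed an adjusted p of 0.05, where 0% of tested genes did, and none passed an unadjusted p of 0.05, where 0.314% were higher and 2.63% lower. Hspa1b had the largest difference, 1.46 ± 1.69 (log2, SE, limma adjusted p = 1.0), with log2 means of 10.93 in the leukemias and 9.48 in normal marrow. It was higher in 2 of 3 leukemias, and without proB ALL it was 2.96 (limma adjusted p = 0.604). Hsph1 had -1.30 ± 1.27 (limma adjusted p = 1.0) and was -0.26 without mixed lineage leukemia. Dnajb1 had -0.69 ± 0.61 (limma adjusted p = 1.0) and was lower in 3 of 3 leukemias. The spread here is that between leukemias of different immunophenotype, which for Hspa1b was an SD of 2.61 on the log2 scale over the 3 leukemias, against 0.16 for Hsp90aa1.

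The leukemia with both fusions was also set against the 2 with AF4-MLL alone. Hsph1 was lower with both fusions by a log2 difference of -3.11 ± 0.62 (SE, limma adjusted p = 0.151), and Hspe1 by -1.83 ± 0.49 (limma adjusted p = 0.186). These were 2 of 9 chaperones lower at an unadjusted p of 0.05, where 5.47% of tested genes were, and 0 of 9 were higher, where 12.3% were. Neither passed the adjusted threshold, and 0% of all tested genes did. Hspa1b had 2.44 ± 1.80 (limma adjusted p = 0.523), a value that was 4.63 against proB ALL and 0.24 against B/T BAL. With 1 residual degree of freedom, the lone array was assumed to vary like the other 2, and fusion and immunophenotype cannot be told apart.

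Other genes of the folding machinery were read from lists that leave out the 10 chaperones and overlap among themselves, Hspd1 standing in 3 of them. In no list did any gene pass limma's adjusted threshold in either comparison. Counts at 2-fold stand against shares of all tested genes of 18.8% higher and 15.2% lower in the mixed lineage, 11.3% and 18.7% in the proB and 15.4% and 17.7% in the B/T leukemia. Mitochondrial chaperones and proteases were the list with the lowest median in the mixed lineage leukemia, -0.87, against 0.29 in the proB leukemia and 0.29 in the B/T leukemia. In mixed lineage leukemia 6 of its 12 genes were lower by 2-fold or more and 0 higher, where 15.2% and 18.8% of all tested genes were, while in the proB leukemia and in the B/T leukemia 1 was lower and 1 higher. Without probe sets marked for cross-hybridisation 3 of 11 were lower in the mixed lineage leukemia, with a median of -0.94. Trap1, the mitochondrial HSP90, had 1371 in the mixed lineage, 2416 in the proB and 5865 in the B/T leukemia, against 4104 in normal marrow. Its other probe set had 1074, 1932 and 3202 in the mixed lineage, proB and B/T leukemias, against 1828 in normal marrow. By that probe set the mixed lineage log2 difference was -0.74, short of 2-fold. Timm44, which ties mitochondrial HSP70 to the import channel, had 2287, 7826 and 11069 in the mixed lineage, proB and B/T leukemias, against 6393 in normal marrow. Htra2, a mitochondrial protease, was lower in each leukemia, with 1747, 1410 and 1099 in the mixed lineage, proB and B/T leukemias, against 3891 in normal marrow.

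HSP70 and HSP90 cochaperones, which steer substrates between the 2 chaperones, had 5 of 20 genes lower by 2-fold or more and 1 higher in the mixed lineage leukemia (15.2% and 18.8% over all tested genes), 0 lower and 3 higher in the proB leukemia, and 0 lower and 3 higher in the B/T leukemia. Their medians were -0.49, 0.27 and 0.24. Bag2, an exchange factor and ubiquitin ligase inhibitor, was below the floor in the mixed lineage leukemia at 54.0, and had 1016 in the proB leukemia and 1231 in the B/T leukemia, against 1710 in normal marrow. Hspbp1, another exchange factor, had 426, 1665 and 3100 in the mixed lineage, proB and B/T leukemias, against 1738 in normal marrow. As with Hsph1, mixed lineage leukemia was the low array for both. Fkbp5, an HSP90 cochaperone induced by glucocorticoids, had 3651, 11138 and 21067 in the mixed lineage, proB and B/T leukemias, against 3246 in normal marrow. The mixed lineage array was near normal marrow for it and the other leukemias were high. Unc45a had 605, 1399 and 2356 in the mixed lineage, proB and B/T leukemias, against 535 in normal marrow, but another of its probe sets had 446, 629 and 698 in the mixed lineage, proB and B/T leukemias, against 1492 in normal marrow.

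Chaperonins, prefoldins and other HSP90s, which include subunits of the cytosolic TRiC ring that folds actin and tubulin, had medians of -0.29, 0.50 and 0.61 in the mixed lineage, proB and B/T leukemias. At least 2-fold higher were 1, 1 and 2 of 16 genes, and lower were 2, 0 and 0. Cct3, a TRiC subunit, had 9990 in the mixed lineage, 27852 in the proB and 34539 in the B/T leukemia, against 13144 in normal marrow by its brightest probe set. None of its other probe sets was 2-fold higher in the proB or B/T leukemia, and 3 were at least 2-fold lower in the mixed lineage leukemia, by log2 differences of -1.14, -1.35 and -2.33 against -0.39 for the brightest. Pfdn5, a subunit of the prefoldin that feeds TRiC, had 22196, 15498 and 11066 in the mixed lineage, proB and B/T leukemias, against 9794 in normal marrow. Another of its probe sets had 19198, 13759 and 10953 in these leukemias, against 11085 in normal marrow, and did not reach 2-fold. Without probe sets marked for cross-hybridisation, 0 of 16 genes of the list were at least 2-fold higher in the mixed lineage leukemia. The rest of the HSP70 family had 3 of 9 genes at least 2-fold higher and 0 lower in the mixed lineage leukemia, 1 and 1 in the proB leukemia and 0 and 1 in the B/T leukemia, with medians of 0.46, 0.64 and 0.07, the last of which was -0.12 under quantile normalization. With dimmer signals raised to the floor, 1 was higher in the mixed lineage leukemia. Hspa9, the mitochondrial HSP70, had 2517, 9526 and 6219 in the mixed lineage, proB and B/T leukemias, against 3718 in normal marrow by its brightest probe set. Mixed lineage leukemia was lowest there, as for Hspe1 and Hspd1, and also by the Hspa9 probe sets with 1459 and 366 in it. Another Hspa9 probe set had mixed lineage leukemia highest, with 556, 17.1 and 18.6 in the mixed lineage, proB and B/T leukemias, against 157 in normal marrow. The last lay below the floor on every array. Hspa4l, an HSP110 relative of Hsph1, had 1846, 789 and 323 in the mixed lineage, proB and B/T leukemias, against 2286 in normal marrow. Its low array was B/T BAL by that probe set. Another had 237, 317 and 241 in these leukemias, against 824 in normal marrow, with mixed lineage leukemia lowest. The remaining Hspa4l probe sets had B/T BAL lowest, with mixed lineage log2 differences from normal marrow of -0.38, -1.05 and -0.33. Hspa1l, a close relative of Hspa1a active mainly in testis, had 219, 44.8 and 10.7 in the mixed lineage, proB and B/T leukemias, against 2.88 in normal marrow. Hspa12a, a distant relative, had 400, 52.7 and 60.8 in the mixed lineage, proB and B/T leukemias, against 32.6 in normal marrow. Both exceeded the floor only in the mixed lineage leukemia, the array with the largest share of probe sets above it, 57.4%.

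J-domain proteins held 3 genes that were at least 2-fold lower in all 3 leukemias, of 18 tested, where 4.45% of all tested genes were. Dnajb2 had 227 in the mixed lineage, 543 in the proB and 450 in the B/T leukemia, against 11333 in normal marrow. Dnaja4 had 259, 14.5 and 109 in the mixed lineage, proB and B/T leukemias, against 4088 in normal marrow, and Dnajb4 had 1374, 1430 and 1918 in the mixed lineage, proB and B/T leukemias, against 8411 in normal marrow. Erythroid markers moved with these genes, 12 of 12 being lower in each leukemia as given above, and their part in the result was not tested. Over the whole list 2, 2 and 1 genes were at least 2-fold higher and 4, 4 and 5 lower in the mixed lineage, proB and B/T leukemias, with medians of 0.02, -0.13 and -0.46. Without probe sets marked for cross-hybridisation the mixed lineage median was -0.01. Dnajb14, an ER membrane J-domain protein, had 1189, 71.5 and 105 in the mixed lineage, proB and B/T leukemias, against 512 in normal marrow.

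Other genes that HSF1 is known to induce, among them further chaperones and cochaperones, were mixed in direction. Of 15 tested, 1 was at least 2-fold higher and 3 lower in the mixed lineage leukemia, 1 and 2 in the proB leukemia and 3 and 2 in the B/T leukemia, with medians of -0.41, -0.01 and 0.49, the second of which was 0.02 under quantile normalization. Gadd45b, a stress gene with other inducers as well, had 18668 in the mixed lineage, 613 in the proB and 3642 in the B/T leukemia, against 1026 in normal marrow. Its other probe sets had 6772, 410 and 2529 in the mixed lineage, proB and B/T leukemias against 2136 in normal marrow, and 1114, 132 and 455 in these leukemias against 350 in normal marrow. All 3 were at least 2-fold higher in the mixed lineage leukemia, but 1 of 3 was in the B/T leukemia. Serpinh1, the collagen chaperone HSP47, had 319, 291 and 1404 in the mixed lineage, proB and B/T leukemias, against 312 in normal marrow. Of 12 stromal and endothelial markers, 4 were at least 2-fold higher and 3 lower in the B/T leukemia, with a median log2 difference of 0.05. The list summed to 17582, 9472 and 80730 in the mixed lineage, proB and B/T leukemias, against 22621 in normal marrow, and 38648 and 30356 of the B/T sum were Col1a2 and Pdgfrb. The part of those cells in that result was not tested. Dedd2 had 1554, 794 and 863 in the mixed lineage, proB and B/T leukemias, against 2767 in normal marrow. Among heat shock factors and their regulator Hsbp1, 4 of 5 were measured, and Hsf1 itself was not analysed here. In the mixed lineage leukemia 2 of 4 were at least 2-fold higher (Hsf4 and Hsf5) and 0 lower, with a median of 1.01, while 0 were higher or lower in the proB and B/T leukemias, with medians of -0.22 and 0.18. The count of 2 was 1 with dimmer signals raised to the floor, 0 of 3 under quantile normalization and 3 with each array scaled to its 75th percentile, and the B/T median was -0.04 under quantile normalization. Hsf2, Hsf4 and Hsf5 were dim, between 77.8 and 473 on the 4 arrays. Hsbp1, which binds HSF1 and dampens it, had 5445, 3768 and 7527 in the mixed lineage, proB and B/T leukemias, against 4438 in normal marrow.

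Small heat shock proteins other than Hspb1 went both ways. Of 6 tested, 2, 1 and 2 were at least 2-fold higher in the mixed lineage, proB and B/T leukemias, and 1, 1 and 2 lower. Some of these values lay below the floor, and with dimmer signals raised to it 1, 1 and 1 were higher and 0, 1 and 1 lower. Hspb6 had 716 in the mixed lineage, 277 in the proB and 388 in the B/T leukemia, against 1004 in normal marrow. Hspb3 had 294, 27.6 and 151 in the mixed lineage, proB and B/T leukemias, against 18.8 in normal marrow. It exceeded the floor only in the mixed lineage leukemia, where dim signals were generally higher. The 2nd percentile of signals was 20.4, 2.88 and 3.97 in these leukemias, against 3.52 in normal marrow. Hspb7 had 199, 81.3 and 16.1 in the mixed lineage, proB and B/T leukemias, against 124 in normal marrow. Hspb11, which despite its name is part of the transport machinery of cilia, had 855, 1684 and 3340 in the mixed lineage, proB and B/T leukemias, against 806 in normal marrow.

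The ER unfolded protein response list holds other genes of the response that induces Hspa5. Of 24 genes, 1 was at least 2-fold higher and 5 lower in the mixed lineage leukemia, 4 and 2 in the proB leukemia and 1 and 5 in the B/T leukemia. The medians were -0.11, 0.25 and -0.40, the first of which was 0.03 with each array scaled to its 75th percentile. Ppp1r15a, the phosphatase subunit that restarts translation after stress, had 810 in the mixed lineage, 572 in the proB and 2762 in the B/T leukemia, against 11423 in normal marrow. It was lower in all 3 leukemias. Chac1, a target of the factor Atf4, had 628, 125 and 136 in the mixed lineage, proB and B/T leukemias, against 664 in normal marrow. Trib3, an inhibitor of the kinase Akt, had 67.6, 460 and 105 in the mixed lineage, proB and B/T leukemias, against 335 in normal marrow. Its other probe set had 198, 259 and 113 in these leukemias, against 183 in normal marrow, so that the mixed lineage array was not low by it. Herpud1, part of ER-associated degradation, had 4087, 8911 and 1425 in the mixed lineage, proB and B/T leukemias, against 2680 in normal marrow, though its other probe set had 1745, 2717 and 1438 in the mixed lineage, proB and B/T leukemias, against 2525 in normal marrow.

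Immediate-early genes, which cells switch on within minutes of a stimulus, were read as a further stress list. Of 20 tested, 9 were at least 2-fold higher and 1 lower in the mixed lineage leukemia (18.8% and 15.2% over all tested genes), 6 and 5 in the proB (11.3% and 18.7%) and 7 and 4 in the B/T leukemia (15.4% and 17.7%), with medians of 0.91, -0.24 and 0.37. Jun, an AP-1 subunit, had 6260 in the mixed lineage, 1157 in the proB and 3329 in the B/T leukemia, against 507 in normal marrow. Its second probe set had 2543, 504 and 3084 in the mixed lineage, proB and B/T leukemias, against 263 in normal marrow, with the B/T array highest. Ier3, an early survival gene, had 10856, 734 and 1471 in the mixed lineage, proB and B/T leukemias, against 1057 in normal marrow. Fosb, another AP-1 subunit, had 417 and 533 in the mixed lineage leukemia and B/T BAL, and lay below the floor in the proB leukemia at 143 and in normal marrow at 15.6. Fosl2 had 4349, 1279 and 226 in the mixed lineage, proB and B/T leukemias, against 2757 in normal marrow, a different order. Its other probe set had 219, 225 and 129 in these leukemias, against 324 in normal marrow, with each leukemia below normal marrow. At least 2-fold higher in all 3 leukemias were 4 of 20 genes of the list, where 1.31% of all tested genes were. Fosb was among these, with the values below the floor given above.

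**Figure D4:**
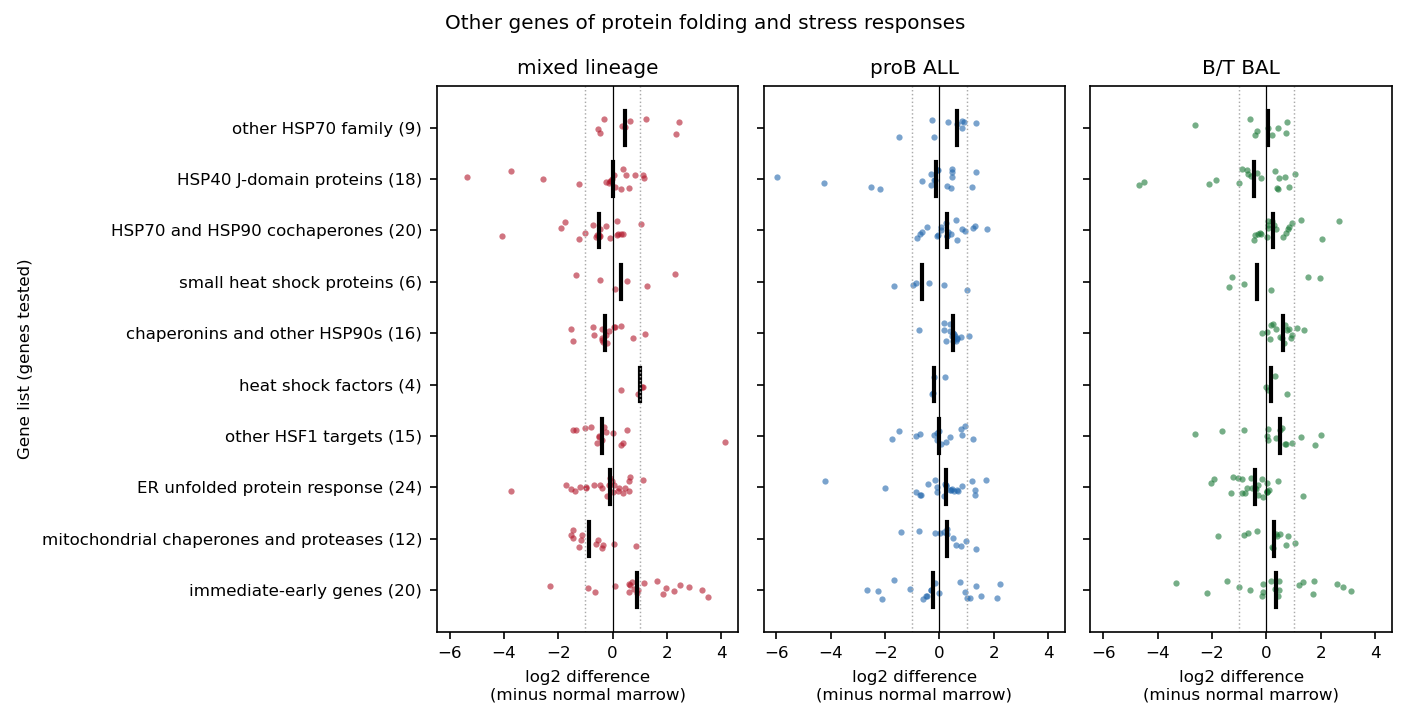
Log2 difference from normal marrow of the tested genes in 10 lists of folding and stress genes, 1 panel a leukemia; each point is 1 gene, black bars are list medians, dotted lines mark 2-fold, and the number of genes tested stands beside each list. Mitochondrial chaperones and proteases have a median of -0.87 in the mixed lineage leukemia against 0.29 in both other leukemias, and immediate-early genes one of 0.91.

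Genes whose pattern over the 4 arrays was nearest to the mean of Hspa1a, Hspa1b, Dnajb1 and Hsph1, by root mean square distance of centred log2 values, were Auts2 at 0.04, and Tln1, Layn, Lxn and Cdc26 at 0.06 each. Hspa1b itself lay 1.49 and Hsph1 1.70 from that mean, so the mean described neither gene.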

How the data were processed

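The authors deposited a linear intensity for each probe set, computed with MAS5, per the submitters' processing notes, which give no version. Each array had a trimmed mean of 1000 after removal of 2% of probe sets at each end. Of 45101 probe sets, 64 controls were left out, 34945 had 1 gene symbol in the platform annotation, 932 several and 9160 none here. No symbol differed from RefSeq among the 34741 matched by gene ID. Values were analysed as log2(signal + 51.4), the pseudocount being the 25th percentile of all signals. This scale shrinks differences of dim genes. The probe set with the largest average log2 value stood for its gene, which was tested if it exceeded the floor of 189 on at least 1 array. A fold is brighter over dimmer signal, with a dimmer side below the floor set at the floor ("at least").

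Tests used limma 3.58.1 in R 4.3.3 (lmFit, eBayes with trend), with Benjamini-Hochberg adjustment over all 14012 genes at 0.05, and were tried on simulated data. P-values measure the spread between different leukemias, which may also be technical, and 4 arrays limit the precision. Single arrays were compared at 2-fold with no test. Alternatives were other pseudocounts, scalings, filters and probe set rules, robust eBayes, and leaving out each leukemia.

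The 10 genes and all lists were chosen with earlier results of these data known. Named are the 10 genes, in each list the 4 genes farthest from normal marrow on any leukemia array, and the 5 genes of nearest profile. Motifs were searched in RefSeq promoter windows of GRCm38.p6.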

Additional observations from a re-analysis of the deposited data

Results flagged for a closer look

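Hspa1b moved in opposite directions in leukemias set against the same normal array. Its log2 difference from normal marrow was 3.08 in the mixed lineage and 2.84 in the B/T leukemia, each against -1.55 in proB ALL, where the signal of 192 was close to the floor. Hspa1a was at 1.84 in mixed lineage leukemia and at -1.18 in proB ALL, but its signals in proB ALL and normal marrow both lay below the floor, so no downward difference was measured for it. With 1 array a group, these differences between leukemias were not tested.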

How the results depend on the processing

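None of the 9 chaperones passed limma's adjusted threshold under any alternative run, in either comparison. Between leukemia and normal marrow, the 0 genes lower in all became 15 with a pseudocount at the 50th percentile and 23 with robust eBayes, and without 1 leukemia the counts were 0 to 4 higher and 0 to 109 lower. With the floor raised (dimmer signals set to it), 2459 genes were higher and 62 lower with both fusions. A gene with both AF4-MLL arrays at the floor has no spread there. How many of the called genes were of that kind was not counted. At 2-fold in mixed lineage leukemia, 1541 genes were higher with a pseudocount at the 50th percentile, 782 when the filter was the 75th percentile, and 1233 with the floor raised. Higher genes were 55.3% of those at 2-fold there, 43.4% under quantile normalization, 42.6% with the floor raised and 64.3% when scaled to the 75th percentile, which moved the median of all genes to 0.23 there, against 0.08. Chaperones lower in mixed lineage leukemia were 4 under quantile normalization (Hspa8 and Hspb1 added) and 1 when scaled to the 75th percentile, and 1 was higher with the filter at the 75th percentile. In proB ALL 1 chaperone was lower with the pseudocount at the 50th percentile, with the filter at the 75th percentile and with the floor raised, where 1667 genes were lower with that filter. In B/T BAL 1431 genes were higher with it. Small differences between leukemia and normal marrow changed sign. Hspa8 was -0.13 under quantile normalization, 0.00 without probe sets marked for cross-hybridisation and 0.68 to -0.08 without 1 leukemia (lowest without B/T BAL). Hspe1 was 0.00 with the mean over probe sets, -0.09 without marked probe sets, -0.20 without proB ALL, -0.24 without B/T BAL and 0.70 without mixed lineage leukemia. Hspb1 was 0.07 with the mean over probe sets, and Hspa1a -0.40 without mixed lineage leukemia and 1.11 without proB ALL. Comparisons between leukemias were rerun under settings chosen after seeing the data. Of 474 chaperone differences by array, 0 called ones reversed and 20 moved by 0.58 or more. With both fusions Hsp90aa1 was 0.08 when scaled to the 75th percentile. The cause of these changes was not tested. Leaving out 1 leukemia with AF4-MLL alone from the comparison of fusions left no residual degree of freedom and gave values only. No paired analysis was possible because each group has 1 array.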

Other observations

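Taken alone, Hspa1b and Hsph1 had their own nearest genes over the 4 arrays, chosen after the values were seen. Nearest to Hspa1b was H3f3b, a replacement histone gene, at a root mean square distance of 0.25 (log2), with signals of 14845 in the mixed lineage, 331 in the proB and 9075 in the B/T leukemia, against 1500 in normal marrow. Nearest to Hsph1 was Slc16a1, a lactate transporter, at 0.17, with 1776 in the mixed lineage, 14764 in the proB and 11655 in the B/T leukemia, against 19722 in normal marrow. Mthfd1, an enzyme of one-carbon metabolism, followed at 0.21, with 920, 8862 and 7841 in the mixed lineage, proB and B/T leukemias, against 7958 in normal marrow. Camta1 came next at 0.28, with 55.6, 643 and 609 in the mixed lineage, proB and B/T leukemias, against 707 in normal marrow. Aldh18a1, an enzyme of proline synthesis, stood at 0.32, with 784, 7650 and 5539 in the mixed lineage, proB and B/T leukemias, against 4919 in normal marrow. Tbc1d10a, also at 0.32, had 36.2, 671 and 572 in these leukemias, against 485 in normal marrow. For Camta1 and Tbc1d10a the mixed lineage value lay below the floor. In the genes nearest to Hsph1, as in Hsph1, the mixed lineage array was the low one and the other 3 arrays lay close together. Likeness over 4 arrays is a description, and many genes can share a pattern over so few points.

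Of the 24 chaperone probe sets, 2 never reached the floor on any array, 1 each of Hsp90aa1 and Hspb1.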
